A study of Danio rerio with 18 samples.

Results

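A set of 10 genes for proteins that the liver secretes, or that carry lipid in it, was followed through whole zebrafish bodies with and without sox10. They were chosen by symbol and are fabp10a, ttr, tfa, serpina1l, fga, fgb, apoa1b, apoa2, apoa4b.1 and apobb.1, or 10 of the 25581 genes listed. The study asked how loss of sox10, a transcription factor of the neural crest, affects the initiation of bone mineralization. Whole-body bulk RNAseq was performed on pools of sox10-/- mutants and of wild types, with 3 pools (replicates 1 to 3) per genotype and stage. The study uses the name sox10 mutants for animals with the ci3020 allele, a deletion that takes away the first coding exon, although the labels of the libraries do not name it. The controls were wild-type relatives of matched stage, and the labels give no other allele and no treatment for either genotype. Tables are deposited for 45 hours post-fertilization (hpf), 4 days post-fertilization (dpf) and 7 dpf. The pools at 45 hpf held 10 to 15 mutants or 10 to 25 wild types, and those at 4 dpf held 10 to 12 mutants or 10 to 15 wild types. The 4 dpf and 7 dpf tables hold the same values on 25896 of 25896 lines, so they were used as 1 larval table under the label 4 dpf, and its true age may be either.

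Hepatocytes make most proteins of the blood plasma, among them the carriers of iron, retinol and thyroid hormone, the clotting factors and the protease inhibitors. Apolipoproteins wrap triglyceride and cholesterol into lipoprotein particles, which the liver and the intestine export to other tissues. In the zebrafish embryo the yolk syncytial layer, a sheet of nuclei at the yolk surface, also expresses several apolipoproteins and transferrin and packs yolk lipid into particles before the liver has grown.

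Abundances are given as TPM, kallisto's unit of transcript abundance, which are scaled for length and to a fixed sum within a library, and the number of reads behind a value is unknown. The transcript of sox10 (ENSDARG00000077467) did not separate the genotypes, with 5.77, 8.41 and 6.39 TPM in larval mutants and 7.33, 5.25 and 6.02 TPM in larval wild types. It therefore gives no check of the genotype labels, and the study states that the ci3020 allele is still transcribed. Most genes lay slightly lower in mutants, with a median difference of -0.33 in log2(TPM + 1) in the larval table and -0.25 at 45 hpf. Because of the fixed sum, abundant transcripts bear on such shifts. ENSDARG00000111458, which the table lists without a symbol, had 148474, 35273 and 73055 TPM in larval mutants against 15357, 38714 and 15396 TPM in larval wild types. Rescaling of the libraries by the median of ratios brought the medians of all genes to 0.03 and 0.0036.

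In wild types, all 10 genes had a higher mean in the larval table than at 45 hpf, and serpina1l, apoa4b.1 and apobb.1 passed the test. Genes were called in limma on log2(TPM + 1) where the adjusted P did not exceed 0.05 and the change reached the study's own minimum fold. Of all 18424 genes tested, 28.9% were called higher. The genes fabp10a and ttr reached the filter on low values, of 1 TPM in 3 of 6 libraries, only through the larval wild types, so they had to differ and are left out of the count. Among all genes that reached it in this way, 98.8% were called higher. Of the other 8 members 3 were called, where 25.1% of the 16734 genes with 1 TPM in some library of each group were. None of the members was called lower, against 39.6% of all genes, and the 4 of these 8 with an unadjusted p of at most 0.05 were all higher. Of these 8 members, the same 3 had every larval wild-type library above every wild-type library at 45 hpf, a pattern found in 31.2% of tested genes. No member showed the opposite order, found in 41.9%. Both shares are over all genes tested, with those that reached the filter through 1 group alone included. The median difference was 1.28 over these 8 members and -0.17 over all genes tested. Stage and table cannot be told apart.

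Between genotypes, most fitted differences lay below 0 in larvae and above 0 at 45 hpf, but a single one passed the test. In larvae 9 of 10 members had a lower fitted level in mutants, as did 77.4% of all 17291 genes tested. Only apobb.1 passed the test, where 18.8% of all these genes were called lower. No member was called higher, against 1.56% of all genes, and the 2 with an unadjusted p of at most 0.05 were both lower. At 45 hpf all 8 members that could be tested had a higher fitted level in mutants, whereas 84.6% of all genes tested had a lower one. None of the 8 passed. Of all 17043 genes tested at that stage, 0.0587% were called higher and 0.499% lower. RNA of whole bodies cannot tell fewer cells of a type from less RNA per cell.

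**Figure D1:**
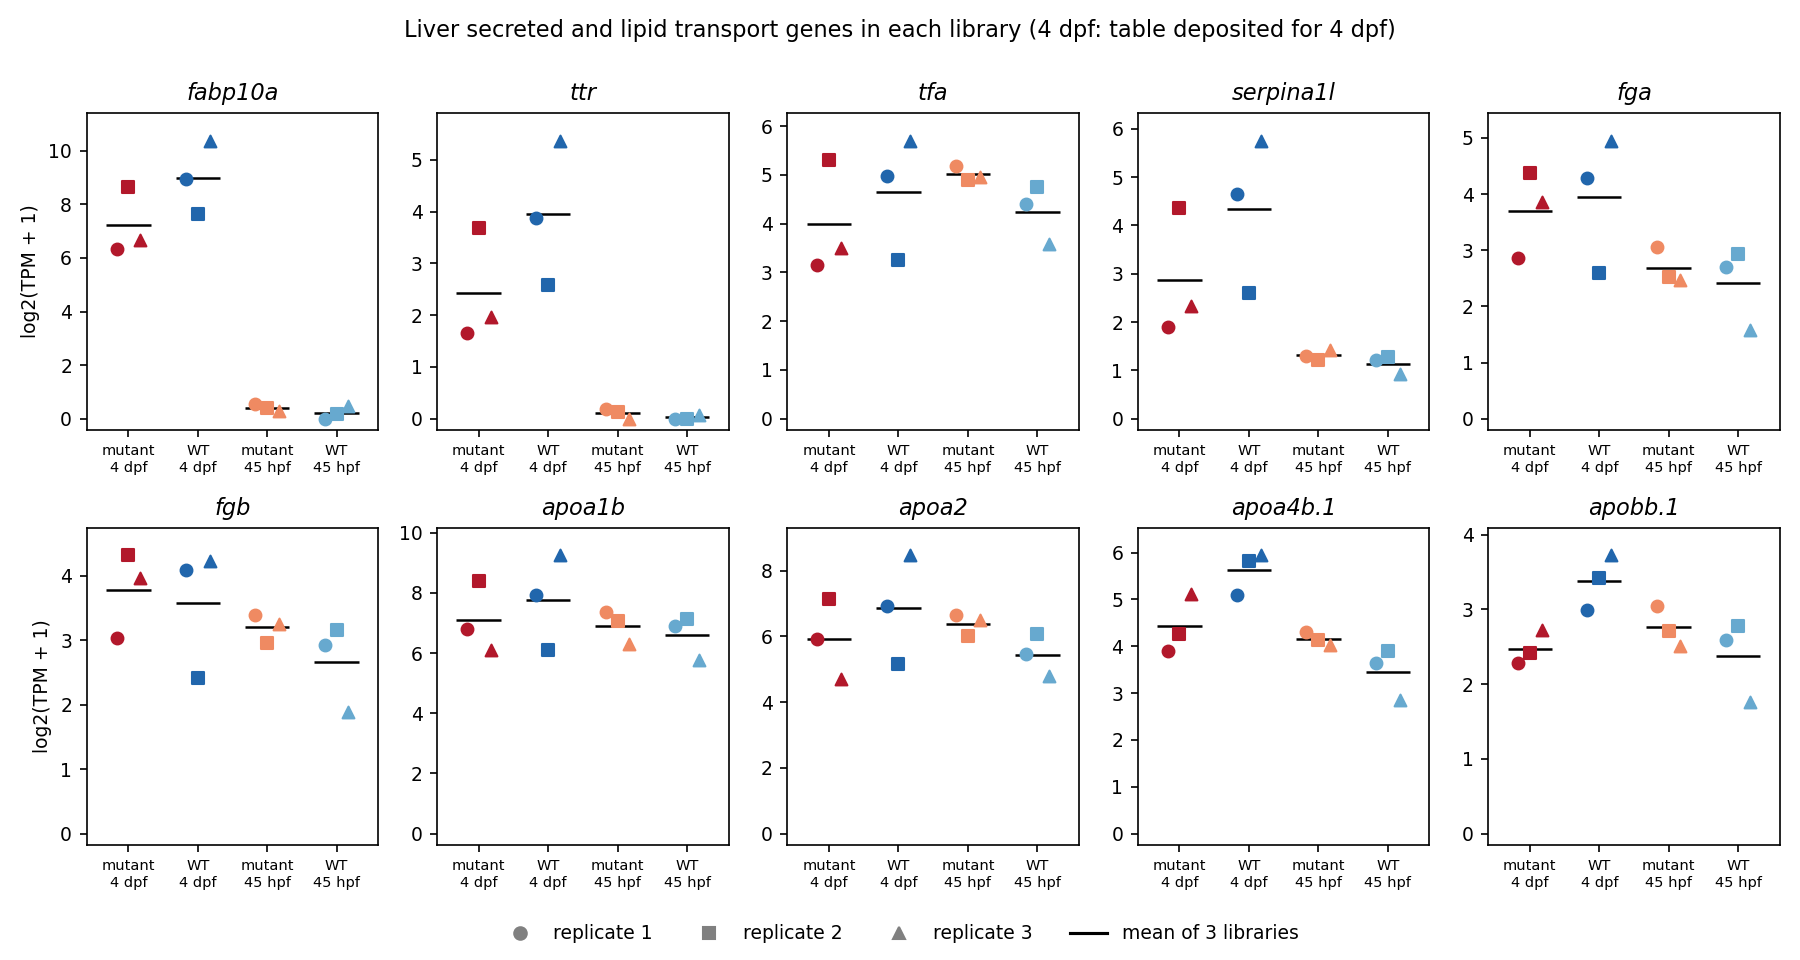
Level of each gene in every library as log2(TPM + 1), with mutants left of wild types and the larval table (4 dpf) left of 45 hpf. Symbols mark the replicate number and bars the mean of 3 libraries. The larval wild-type libraries of fabp10a, ttr and serpina1l lie above every library at 45 hpf, whereas those of tfa range across the levels at 45 hpf.

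The liver fatty acid binding protein gene fabp10a (ENSDARG00000038439), whose product carries fatty acids and bile acids within hepatocytes, had the widest range of the set. Larval mutants had 79.99, 403.5 and 100.4 TPM and larval wild types 490.3, 196.8 and 1332 TPM. At 45 hpf the mutants had 0.458, 0.314 and 0.209 TPM and the wild types were listed at 0, 0.126 and 0.375 TPM. Every larval library thus lay far above every embryonic one, and in larval wild types fabp10a ranked 184th by mean among 25581 genes, against 21268th at 45 hpf. The stage difference in wild types was 8.77 ± 0.59 in log2(TPM + 1) (SE), given without a test because the gene reached the filter through the larval wild types alone. Larval mutants had 0.289 times the wild-type mean, but the mutant library of replicate 2 lay above the wild-type library of replicate 2. The genotype difference of -1.76 ± 0.81 did not pass the test (adjusted P = 0.140).

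Transthyretin, the plasma carrier of thyroid hormone, followed fabp10a closely. Larval mutants had 2.15, 11.8 and 2.90 TPM of ttr (ENSDARG00000037191) and larval wild types 13.8, 5.0 and 40.4 TPM. At 45 hpf it was at or near 0, with 0.141, 0.0898 and 0 TPM in mutants and 0, 0 and 0.0535 TPM in wild types. The stage difference was 3.92 ± 0.60, without a test for the same reason as for fabp10a, and the larval genotype difference -1.52 ± 0.77 (adjusted P = 0.172). The genotypes overlapped for this gene in the same libraries as for fabp10a. Without the larval mutant library of replicate 2 both genes were called lower in mutants, fabp10a at -2.48 (adjusted P = 0.0292) and ttr at -2.14 (adjusted P = 0.0484). That fit called 32.7% of all genes lower, against 18.8% with every library.

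The gene serpina1l (ENSDARG00000090850) encodes a secreted serine protease inhibitor of the alpha-1-antitrypsin family. It had 2.72, 19.6 and 4.01 TPM in larval mutants and 24.1, 5.08 and 53.1 TPM in larval wild types. Embryos of both genotypes were near 1 TPM, with 1.44, 1.34 and 1.66 TPM in mutants and 1.32, 1.42 and 0.891 TPM in wild types. The larval wild types were higher than the embryonic ones by 3.20 ± 0.69 (adjusted P = 0.00387). The genotype difference in larvae was -1.48 ± 0.90 (adjusted P = 0.241), and the groups overlapped. Its relative serpina1 showed a like pattern, with 3.06, 19.2 and 3.48 TPM in larval mutants and 36.6, 9.27 and 89.5 TPM in larval wild types.

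Transferrin, the iron carrier of plasma, was the member with the least change by stage. The tfa gene (ENSDARG00000016771) had 7.95, 38.7 and 10.4 TPM in larval mutants and 30.7, 8.58 and 51.2 TPM in larval wild types. At 45 hpf it had 35.2, 28.9 and 30.2 TPM in mutants, all above the 20.3, 25.8 and 11.0 TPM of the wild types. It was therefore already expressed in embryos in which fabp10a and ttr were near 0. The stage difference in wild types was 0.40 ± 0.59 (adjusted P = 0.564). The genotype difference was -0.66 ± 0.74 in larvae (adjusted P = 0.515) and 0.77 ± 0.26 at 45 hpf (adjusted P = 0.163).

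The fibrinogen chains, which are cleaved and polymerize into the clot, were measured through fga (alpha chain, ENSDARG00000020741) and fgb (beta chain, ENSDARG00000008969). Larval mutants had 6.25, 19.7 and 13.5 TPM of fga and larval wild types 18.5, 5.02 and 30.0 TPM. For fgb the larval mutants had 7.21, 18.9 and 14.7 TPM and the larval wild types 16.1, 4.35 and 17.8 TPM. The lowest of all 6 larval libraries was for both genes a wild-type one, that of replicate 2, so the genotypes overlapped. At 45 hpf fga had 7.31, 4.77 and 4.54 TPM in mutants and 5.51, 6.68 and 2.00 TPM in wild types, and fgb 9.504, 6.76 and 8.55 TPM in mutants and 6.62, 7.91 and 2.72 TPM in wild types. By stage, fga differed by 1.53 ± 0.61 (adjusted P = 0.0531) and fgb by 0.92 ± 0.52 (adjusted P = 0.150). The larval genotype differences were -0.25 ± 0.63 for fga and 0.19 ± 0.53 for fgb, the only one above 0. The third chain, fgg, had 1.21, 4.08 and 2.16 TPM in larval mutants and 6.17, 1.44 and 16.2 TPM in larval wild types.

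Among the apolipoproteins, apoa1b (ENSDARG00000101324) and apoa2 (ENSDARG00000015866) encode the main proteins of high density lipoprotein. Larval mutants had 109.9, 334.3 and 67.4 TPM of apoa1b and larval wild types 245.0, 67.3 and 604.6 TPM. For apoa2 the larval mutants had 59.5, 139.9 and 24.9 TPM and the larval wild types 121.7, 34.9 and 352.0 TPM. Both were abundant in embryos too. At 45 hpf apoa1b had 162.2, 132.6 and 78.6 TPM in mutants and 117.5, 140.7 and 53.8 TPM in wild types, and apoa2 had 99.0, 62.9 and 89.4 TPM in mutants and 43.4, 66.0 and 26.8 TPM in wild types. Neither passed by stage, at 1.16 ± 0.74 for apoa1b (adjusted P = 0.196) and 1.41 ± 0.75 for apoa2 (adjusted P = 0.128). Nor did they pass by genotype in larvae, at -0.67 ± 0.86 (adjusted P = 0.568) and -0.94 ± 0.89 (adjusted P = 0.439).

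The genes apoa4b.1 (ENSDARG00000040298) and apobb.1 (ENSDARG00000022767) encode proteins of the large triglyceride carriers, apolipoprotein B being the scaffold of each particle. Larval mutants had 14.0, 18.1 and 33.6 TPM of apoa4b.1 and larval wild types 33.0, 55.8 and 60.4 TPM, which overlapped by a small margin in 1 library of each genotype. For apobb.1 the larval mutants had 3.88, 4.33 and 5.60 TPM, all below the 6.93, 9.68 and 12.2 TPM of the larval wild types. It was the only member whose larval genotypes did not overlap with mutants lower, an order found in 42.8% of all genes tested, and no member had the opposite order, found in 5.96%. At 45 hpf apoa4b.1 had 18.6, 16.6 and 15.4 TPM in mutants, all above the 11.4, 13.8 and 6.24 TPM of wild types. For apobb.1 the embryos overlapped, with 7.29, 5.57 and 4.71 TPM in mutants and 5.02, 5.87 and 2.39 TPM in wild types.

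Both genes of these particles were higher in larval than in embryonic wild types, apoa4b.1 by 2.16 ± 0.31 (adjusted P = 5.01e-04) and apobb.1 by 1.00 ± 0.30 (adjusted P = 0.0181). In larval mutants apobb.1 was called lower than in wild types, at -0.90 ± 0.23 (adjusted P = 0.0433), and apoa4b.1 differed by -1.19 ± 0.35 (adjusted P = 0.0520). The call of apobb.1 was not stable. With rescaled libraries its difference was -0.52 (adjusted P = 0.131), and it was also lost with another pseudocount (-1.03), without the filter on low values and in 5 of 6 fits that left out 1 library. The 6 fits gave -0.73 to -1.096.

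**Figure D2:**
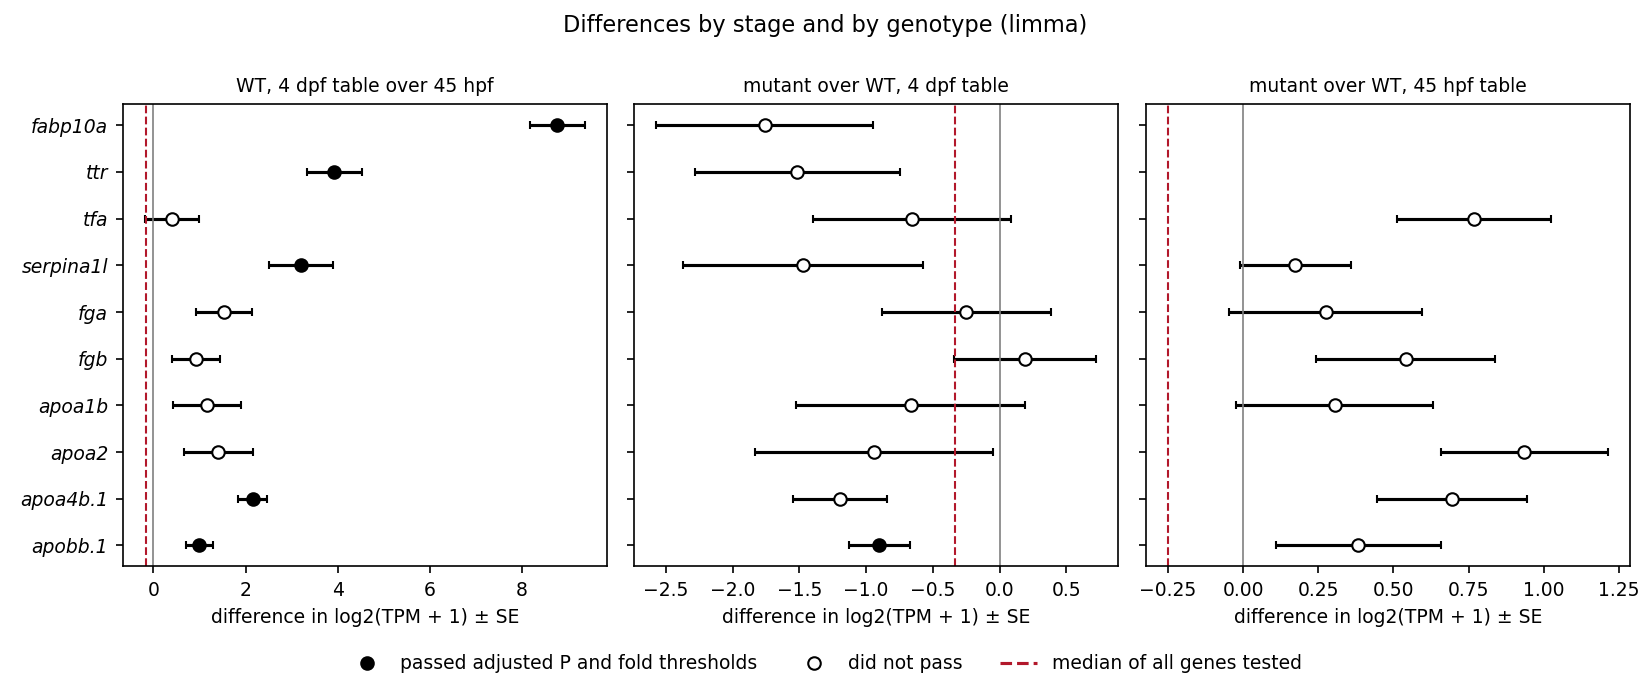
Fitted differences in log2(TPM + 1) with standard errors, for larval over embryonic wild types (left), larval mutants over wild types (centre) and mutants over wild types at 45 hpf (right). Filled points met the thresholds for a call, and dashed lines give the median of all genes tested. The genes fabp10a and ttr were too low at 45 hpf to be tested there. Their points in the left panel are filled, but these genes reached the filter through the larval wild types alone and are not counted.

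Larval libraries of the same genotype differed widely for these genes. Among wild types the library of replicate 3 was the highest for 10 of 10 members and that of replicate 2 the lowest for 8 of 10, all but apoa4b.1 and apobb.1. Of all genes tested in larvae, 31.2% had the same lowest and highest library, so the order itself was common, but the size of the gap was not. The highest wild-type library had 10.4 times the lowest for serpina1l, 10.1 times for apoa2, 8.99 times for apoa1b, 8.09 times for ttr and 6.77 times for fabp10a. For tfa, fga and fgb the ratio was 5.97, 5.98 and 4.09. The median ratio over all genes tested was 1.34, and ratios at least as high as those of these 8 members were found in between 0.151% and 2.04% of genes. In contrast, apoa4b.1 and apobb.1 had ratios of 1.83 and 1.76, which 19.8% and 22.0% of genes reached.

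Among larval mutants the library of replicate 2 was the highest for 8 of 10 members and that of replicate 1 the lowest for 8 of 10. Summed over the members, larval mutants had 293, 1009 and 277 TPM and larval wild types 1000, 392 and 2553 TPM. The wild-type library of replicate 2 lay below the highest mutant library in 8 of 10 members, that of replicate 1 in 6 and that of replicate 3 in 1. With the larval wild-type library of replicate 2 left out, all 8 members that could still be tested by stage were called higher, where 26.8% of all genes were. Without wild-type replicate 1 or replicate 3 only 3 of these 8 were called, where 21.1% and 22.5% of all genes were. In the fit without replicate 2, tfa differed by 1.099 (adjusted P = 0.0181), fga by 2.21 (adjusted P = 9.55e-04), fgb by 1.504 (adjusted P = 0.00371), apoa1b by 1.99 (adjusted P = 0.00425) and apoa2 by 2.26 (adjusted P = 0.00237).

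Lists of genes of neighbouring organs were read in the same libraries, since whole bodies hold them all. Of 15 enterocyte genes, the 12 in the table summed to 51.2, 153 and 196 TPM in larval mutants and 157, 230 and 211 TPM in larval wild types, with none at 0. Their wild-type sums did not follow the members, since replicate 2 was the highest. For 19 of 20 exocrine pancreas genes the sums were 185, 1343 and 1041 TPM in larval mutants and 1781, 1064 and 2662 TPM in larval wild types, with replicate 2 the lowest wild type as for most members. The sums of the other liver lists did not share the low level of that library. Single listed genes did, such as plg with 5.89, 1.21 and 11.3 TPM in larval wild types. In wild-type replicate 2 the sums of other plasma proteins and of hepatocyte metabolic enzymes lay 0.0997 and 0.397 above the mean of the 6 larval libraries in log2(TPM + 1), although it was the lowest wild type for both, whereas the 8 members outside the triglyceride carriers lay at -0.47 to -1.33. Prss1, a trypsinogen, had 72.7, 560.5 and 410.6 TPM in larval mutants and 609, 327 and 750 TPM in larval wild types. The enterocyte marker fabp2 had 16.01, 75.5 and 87.8 TPM in larval mutants and 68.9, 81.7 and 83.85 TPM in larval wild types. Larval mutant replicate 1 had the lowest median-of-ratios factor of the 6 larval libraries, 0.70, so genes in general were listed low in it. That library had the lowest sum of the 6 for other plasma proteins, hepatocyte metabolic enzymes, exocrine pancreas genes and enterocyte genes. Not every liver list had its lowest sum in it. Liver transcription factors summed to 202 TPM there, against 153 and 164 TPM in mutant replicates 2 and 3. That sum rested largely on cebpd, which alone had 143, 103 and 110 TPM in mutant replicates 1 to 3. Of the 21 factors, 12 were under 1 TPM in mutant replicate 1, against 10 and 10 in the others. The members summed to 293 TPM in it and to 277 TPM in mutant replicate 3. How far the share of liver, pancreas and intestine in the body bears on the members' differences was not tested.

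**Figure D3:**
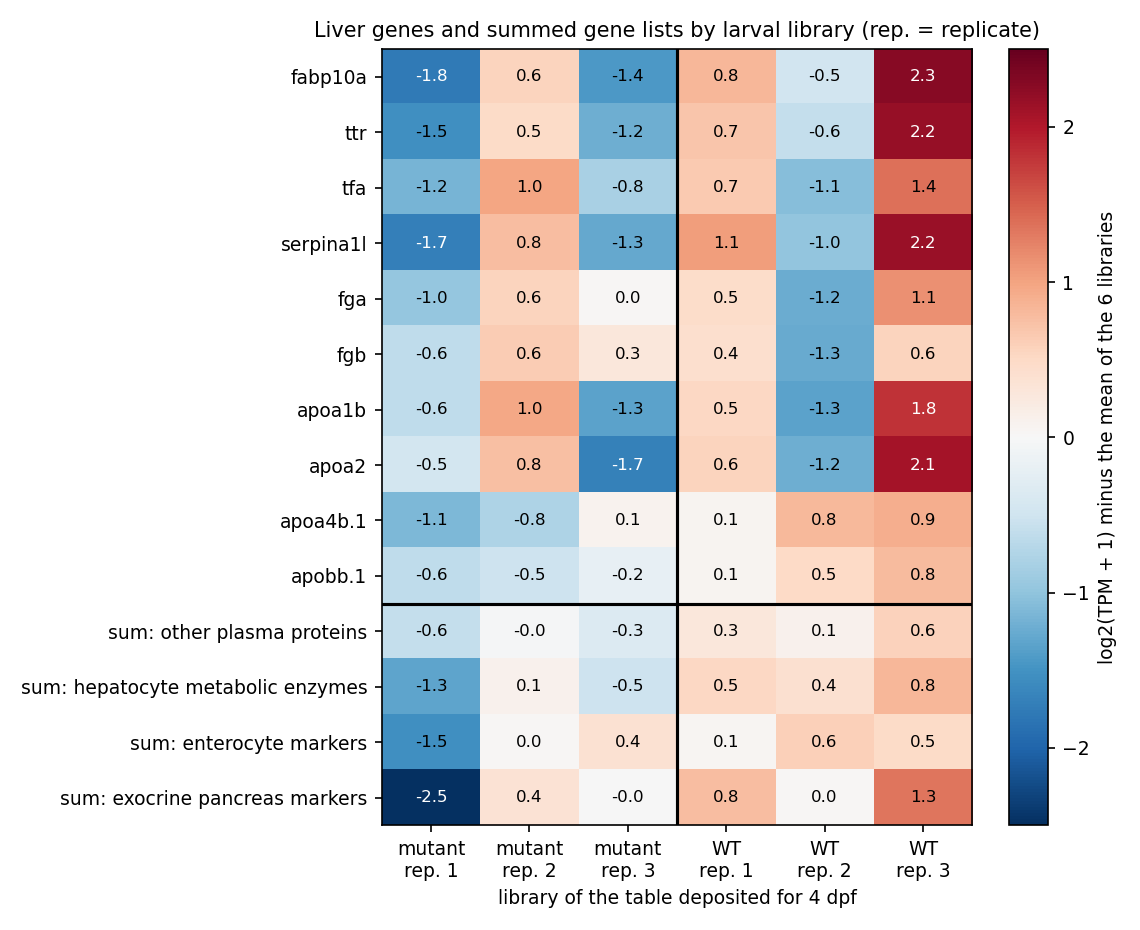
Each of the 10 genes, and the summed TPM of 4 lists of other genes, in the 6 larval libraries, as log2(TPM + 1) minus the mean of the 6 libraries. Mutants are left of wild types. The 8 upper genes are red in mutant replicate 2 and wild-type replicates 1 and 3 and blue in mutant replicate 1 and wild-type replicate 2, whereas in wild-type replicate 2 apoa4b.1, apobb.1 and the sums of all 4 lists, those of the liver included, are not below 0.

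Ratios between genes of the same library do not depend on the scale of that library. The 9 pairs were chosen after the values were seen and are given as a description. In larvae the genotypes did not overlap for 5 of them and overlapped for 4. How often this holds for other pairs of genes was not counted, so the share cannot be judged. The ratio of fabp10a to ttr was nearly constant, at 37.3, 34.2 and 34.6 in larval mutants and 35.7, 39.4 and 32.9 in larval wild types, although fabp10a itself ranged from 80.0 to 1332 TPM over these libraries. The ratio of fabp10a to tfa was lower in each mutant than in each wild type, at 10.1, 10.4 and 9.68 in mutants and 15.99, 22.9 and 26.0 in wild types. The fibrinogen ratio fga to fgb was 0.867, 1.04 and 0.917 in larval mutants and 1.15, 1.15 and 1.68 in larval wild types. The ratio of fga to fgg was 5.18, 4.84 and 6.23 in larval mutants, above the 3.01, 3.48 and 1.86 of larval wild types. None of these genotype differences can reach a two-sided exact permutation p below 0.1 with 3 libraries against 3.

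Close relatives of the members did not always move with them. The ratio of serpina1l to serpina1 was 0.891, 1.02 and 1.15 in larval mutants and 0.660, 0.548 and 0.593 in larval wild types. For apoa4b.1 over its relative apoa4b.2 it was 0.955, 1.03 and 1.102 in larval mutants and 2.44, 3.10 and 2.03 in larval wild types. The ratios that overlapped, beside fabp10a to ttr, were those among the apolipoproteins apoa1b, apoa2, apoa1a, apoa4b.1 and apobb.1. For apoa1b over apoa2 the values were 1.85, 2.39 and 2.71 in larval mutants and 2.01, 1.93 and 1.72 in larval wild types, and for apoa4b.1 over apobb.1 they were 3.61, 4.19 and 5.99 in larval mutants and 4.76, 5.76 and 4.95 in larval wild types. For apoa1b over apoa1a they ranged from 1.08 to 4.897 in larval mutants and from 0.851 to 7.196 in larval wild types. The level of apoa4b.2 itself was 14.6, 17.6 and 30.4 TPM in larval mutants and 13.5, 18.0 and 29.7 TPM in larval wild types, with a difference of 0.036 ± 0.35 (adjusted P = 0.944). The other apolipoprotein A-I gene, apoa1a, had 53.4, 68.3 and 62.5 TPM in larval mutants and 57.7, 79.0 and 84.0 TPM in larval wild types, and its highest wild-type library was not set apart as that of apoa1b was. Near-identical copies can share reads in such families, and how the quantification divided them is unknown.

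**Figure D4:**
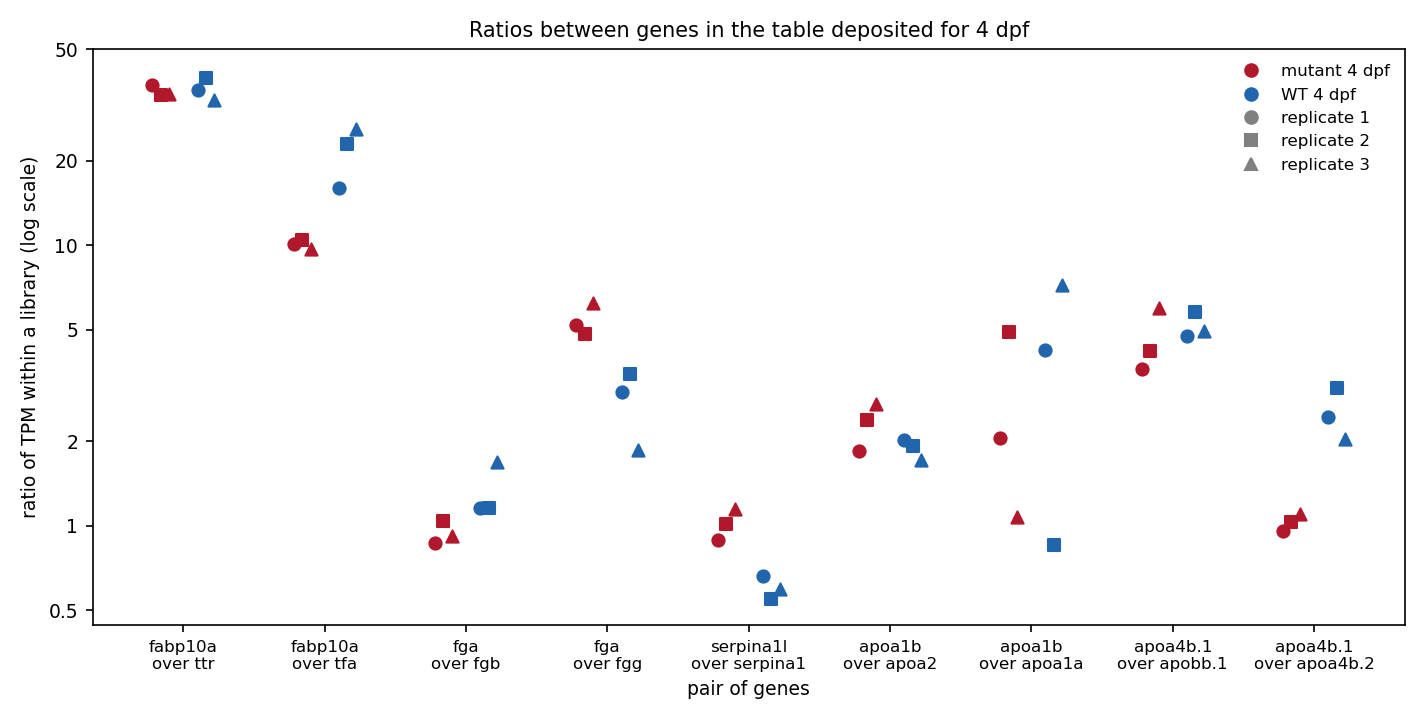
Ratios of TPM between 9 pairs of genes within each larval library, on a log scale, with mutants (red) left of wild types (blue) and the symbol giving the replicate number. The ratio of fabp10a to ttr stays between 32.9 and 39.4 in all 6 libraries, and that of apoa4b.1 to apoa4b.2 is 0.955 to 1.102 in mutants and 2.03 to 3.10 in wild types.

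At 45 hpf the comparison asks whether the genotypes differed while fabp10a and ttr were still near 0. In mutants the 8 tested members had a median difference of 0.46 in log2(TPM + 1), whereas the median of all genes tested was -0.25. With rescaled libraries the medians were 0.71 and 0.0036, again with 8 of 8 members higher. The largest differences were those of apoa2, at 0.94 ± 0.28 (adjusted P = 0.147), tfa, at 0.77 ± 0.26, and apoa4b.1, at 0.69 ± 0.25 (adjusted P = 0.173). By limma none passed, and 3 had an unadjusted p of at most 0.05. The groups did not overlap for tfa and apoa4b.1, or 2 of the 8 tested members. Of all genes tested, 1.94% had every mutant library above every wild type and 23.7% had the opposite order.

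The remaining differences at 45 hpf were 0.54 ± 0.30 for fgb, 0.38 ± 0.27 for apobb.1, 0.30 ± 0.33 for apoa1b, 0.27 ± 0.32 for fga and 0.17 ± 0.18 for serpina1l. For fabp10a and ttr, which did not reach 1 TPM in any embryonic library, exact permutation tests gave p = 0.3 and p = 0.4. Single libraries bore on these values. The wild-type library of replicate 3 was the lowest of its group for 8 of 10 members and the mutant library of replicate 1 the highest of its group for 9 of 10. Without that mutant library apoa2, tfa and apoa4b.1 were called higher (apoa2 by 0.80, adjusted P = 0.00460), in a fit that called 5166 genes lower and 115, or 0.689%, higher. Without the wild-type library of replicate 3, apoa1b and fga turned to -0.11 and -0.14.

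The yolk syncytial layer could not be judged from the genes listed for the yolk and for that layer. The vitellogenin genes vtg1 to vtg7 had at most 0.346 TPM in any library and mxtx2, the transcription factor of that layer, at most 0.199 TPM. The iron exporter slc40a1, which the layer and other tissues express, had 20.3, 16.99 and 13.6 TPM in embryonic mutants and 17.1, 22.4 and 21.4 TPM in embryonic wild types. The embryonic source of tfa, apoa1b and apoa2 was not tested.

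The genotype effect was then compared between the stages with an interaction term. All 8 members that could be tested in both tables had a more negative genotype difference in the larval table than at 45 hpf, with a median of -1.36 where all 17403 genes tested had -0.11. None passed the test, and 2 had an unadjusted p of at most 0.05. The call rates over all genes were 0.121% for a more negative and 0.144% for a more positive effect in larvae. The differences were -1.89 ± 0.47 for apoa4b.1 (adjusted P = 0.115) and -1.29 ± 0.39 for apobb.1 (adjusted P = 0.176). For fabp10a, which entered this fit through its larval libraries alone, as ttr did, it was -1.96 ± 0.89. With rescaled libraries the median was -1.15 over the 8 members and 0.059 over all genes, again with 8 of 8 below 0.

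Other genes of liver and lipid transport were read from fixed lists. By stage in wild types, 20 of 33 tested plasma protein genes were called higher and 2 lower, and for enzymes of hepatocyte metabolism the counts were 19 and 1 of 28, where 28.9% of all genes were higher and 39.6% lower. The plasma retinol carrier rbp4 had 511, 540 and 653 TPM in larval wild types and 24.0, 38.3 and 43.2 TPM in embryonic ones, a difference of 4.01 ± 0.22 (adjusted P = 3.11e-06). Of liver transcription factors 6 of 15 were higher and 6 lower, among them cebpd (5.18 ± 0.20) and onecut1 (-2.85 ± 0.27). Among other lipid transport genes 18 of 32 were higher and 5 lower, with fabp6, the bile acid binding protein of the ileum, at 8.68 ± 0.12. Of the genes called higher, 6 plasma proteins, 8 enzymes, 2 transcription factors and 1 lipid transport gene, fabp6, had reached the filter only through the larval wild types.

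By genotype in larvae, where 18.8% of all genes were called lower, 2 of 38 plasma protein genes were called, both lower, rbp4 (-1.01 ± 0.22, adjusted P = 0.0431) and igfbp1b (-1.74 ± 0.28, adjusted P = 0.0431). The level of rbp4 was 256, 362 and 236 TPM in larval mutants, below every larval wild type. Of 33 lipid transport genes 1 was higher and 9 lower, including fabp6 with 48.0, 156 and 87.6 TPM in larval mutants and 521, 578 and 482 TPM in larval wild types (-2.58 ± 0.39, adjusted P = 0.0431). Of 28 hepatocyte enzymes 10 were called, all lower, among them pck1, which controls entry into gluconeogenesis, with 13.03, 8.22 and 15.0 TPM in larval mutants and 29.9, 58.8 and 63.1 TPM in larval wild types. Of 12 transcription factors cebpd, nr1i2 and hnf4a were called, all lower. The lists' median differences were -0.45 for plasma proteins, -0.62 for lipid transport, -1.03 for enzymes and -0.47 for transcription factors, against -0.92 for the members and -0.33 for all genes. Lists of other organs also lay below all genes, at -1.23 for exocrine pancreas and -0.59 for enterocytes. For 3 genes listed for the yolk and its syncytial layer the median was -0.66. That is the value of hnf4a, which is also counted among the liver transcription factors. After rescaling, 27 genes in all were called lower in larval mutants, against 3249 before. Their number also fell with another pseudocount, without the filter on low values and with the replicate block. The counts above are therefore not stable.

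At 45 hpf 1 of 31 lipid transport genes and 1 of 20 enzymes were called, both lower in mutants. The apolipoprotein D gene apoda.1 had 0.13, 0.04 and 0.12 TPM in embryonic mutants and 17.9, 21.1 and 18.0 TPM in embryonic wild types. The study names it among the genes of pigment cells that were lower in its mutants. The enzyme was fah, the last of tyrosine breakdown. It had 1.22, 0.95 and 1.08 TPM in embryonic mutants and 5.17, 5.68 and 3.45 TPM in embryonic wild types. In larval mutants fah was lower as well, at -2.11 ± 0.28 (adjusted P = 0.0406). The difference of apoda.1 was -2.82 ± 0.20 in larvae, and in both tables it reached the filter through the wild types alone.

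Across all 12 libraries the genes whose centred profile lay nearest to the mean profile of the members were apom, hamp, fgg, si:dkey-6n6.1 and LOC567816. Their root mean square differences were 0.29, 0.36, 0.37, 0.39 and 0.39 in log2(TPM + 1), among 17393 genes compared. Apom, the apolipoprotein that carries sphingosine-1-phosphate, had 11.0, 27.3 and 8.06 TPM in larval mutants and 27.1, 7.79 and 53.3 TPM in larval wild types. Hamp, the iron-regulating hormone hepcidin, had 1.45, 5.24 and 2.79 TPM in larval mutants and 8.35, 2.00 and 20.1 TPM in larval wild types. Within the set, fga (0.42) and serpina1l (0.50) lay nearest to that mean and fabp10a (3.05) farthest. By the RefSeq gene order of assembly GRCz12tu, apoa2 lies in a cluster with apoeb, apoc1, apoc4 and apoc2, and fga and fgb are separated by a single gene. In that cluster apoc1 had 103, 103 and 90.7 TPM in larval mutants and 119, 81.3 and 166 TPM in larval wild types, and apoeb 288, 261 and 340 TPM in larval mutants and 413, 376 and 311 TPM in larval wild types, so these neighbours did not show the range of apoa2.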

How the data were processed

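Total RNA of whole-body pools was poly-A selected and sequenced in pairs. Per the labels, reads were trimmed with Trimmomatic 0.39 and quantified with kallisto on GRCz11, and the authors deposited 3 tables of TPM per gene and library. The step from transcripts to genes is not given in the sources used here. TPM keep no count of reads, so depth is unknown, no counting interval can be given and precision rests on 3 libraries per group. The authors tested pseudo-aligned reads with DESeq2, which needs counts and was not repeated. Of 18 libraries labelled, 12 are distinct, because the 4 dpf and 7 dpf tables are identical, while 45 hpf shares 612 lines with them. All per-library columns were mapped. Lines repeating a gene (315) were dropped.

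Genes that reached 1 TPM in 3 or more of 6 libraries (6 or more of 12 for the interaction) were tested on log2(TPM + 1) with limma 3.58.1 under R 4.3.3 (lmFit, eBayes with trend) and Benjamini-Hochberg adjustment over all tested genes. Fold changes on this scale understate changes of low genes. Calls needed adjusted P values up to 0.05 and a 1.25-fold change, the study's thresholds. The fits were tested on simulated data. Whether pools came from separate clutches is not stated, so P-values measure the spread between these pools. Genes that reached this filter through 1 group alone were counted apart, after the values were seen. Members below the filter got two-sided exact permutation tests. Values were summarised in Python 3.11.15 with pandas 2.3.3, numpy 2.4.6 and scipy 1.17.1, and plotted with matplotlib 3.10.9.

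The members and gene lists were chosen with earlier results of these data known. Named genes were all members, their relatives, sox10, organ markers, in each list the 3 called genes with the largest rise and fall, the 5 nearest profiles and the most abundant larval genes. Genes neighbouring a member, further examples from the lists and the ratios between genes were added after their values were seen. Of the members, 10 of 10 matched RefSeq symbols. The fits were repeated after median-of-ratios rescaling, with a pseudocount of 0.1, unfiltered, with a filter on means of 5 TPM, with the replicate number as a block and without each library. Sequences and coordinates were not used here.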

Additional observations from a re-analysis of the deposited data

Results flagged for a closer look

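The genotype effect of 3 listed genes differed between the larval table and 45 hpf by an interaction term in limma, each with an adjusted P of 0.0478. It was more negative in larvae for fabp6, by -2.49 in log2(TPM + 1), and for pck1, by -2.17. It was less negative in larvae, by 1.36, for apoda.1, which the study lists with genes of pigment cells. In the embryos fabp6 and pck1 were near or below 1 TPM, and apoda.1 was below it in every mutant, so they entered the fit mainly or only through the groups where they were high. None of the 10 liver genes passed that test. Groups of 3 libraries were too small for a test of outlying samples.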

How the results depend on the processing

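Depth is unknown for TPM, and 3 libraries per group limit what can be called. Numbers of genes called depended on the libraries, their scale, the pseudocount and the filter. In larval mutants 3249 genes were called lower and 269 higher, but 43 and 10 with a pseudocount of 0.1, 17 and 3 without a filter, 1370 and 117 at a mean of at least 5 TPM and 27 and 14 after rescaling. Leaving out 1 library gave 2 to 5549 lower and 0 to 582 higher, with the high ends without mutant replicate 2. Only the fit without wild-type replicate 2 (2922 and 232) was near the full one, and those without mutant replicates 1 and 3 or wild-type replicates 1 and 3 gave at most 10 lower and 0 higher (355 to 617 higher at an unadjusted p under 0.05). At 45 hpf, 85 were lower and 10 higher, against 39 and 5 at a mean of at least 5 TPM. The higher count was 1 with a pseudocount of 0.1, 1 without a filter and 25 after rescaling. Leaving out 1 library gave 34 (without mutant replicate 3) to 5166 (without mutant replicate 1) lower and 0 to 115 higher, with the same libraries at the ends (207 higher at an unadjusted p under 0.05 at the low end), and 42 and 27 higher without wild-type replicates 2 and 3. By stage 5321 were higher, against 3172 at a mean of at least 5 TPM. For the interaction, 21 genes were more negative and 25 more positive. The count was 5 more negative with a pseudocount of 0.1 and 41 more positive after rescaling, and leaving out 1 library gave 2 to 576 and 7 to 216, with the high ends without larval mutant replicate 2 and at most 13 and 15 in the other fits.

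With the replicate block, the genotype counts were 669 lower and 68 higher at 45 hpf, 2 lower and 0 higher in larvae (441 higher at an unadjusted p under 0.05) and 2 and 3 for the interaction. Deviations of same-numbered libraries correlated at -0.61 to 0.11, which gave no sign of a pairing by number. The libraries were not rescaled for this, so it cannot exclude such a pairing. Among members the replicate block ended the larval call of apobb.1 and let apoa2 at 45 hpf pass (0.94, adjusted P = 0.00557).

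Among the repeated fits, the differences of single members changed sign 11 times, some differences more than once and none with a call. Over the fits that left out 1 library, apoa1b ranged from -0.11 to 0.60 and fga from -0.14 to 0.54 at 45 hpf, apoa1b from -1.50 to 0.075, fga from -0.93 to 0.26 and fgb from -0.39 to 0.56 by genotype in larvae, tfa from -0.12 to 1.099 by stage and fgb from -0.93 to 0.033 for the interaction. Without wild-type replicate 3 of the table concerned, the sign turned for apoa1b and fga in both tables, for tfa by stage and, without the embryonic one, for fgb in the interaction. In larvae fga was 0.16 after rescaling and 0.17 without mutant replicate 1, and fgb was -0.39 without wild-type replicate 2 and -0.079 without mutant replicate 2. The interaction of fgb was 0.019 without larval mutant replicate 1. By stage fga passed after rescaling (1.63, adjusted P = 0.0294) and at a mean of at least 5 TPM. Without any 1 larval wild-type library, fabp10a and ttr fell below the filter by stage and gave no value. The causes were not tested.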
